A study of Homo sapiens with 17 samples.

Results

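The ZNF genes are the largest named group of zinc finger genes in the human genome, and 103 of them were followed here across 7 groups of PC3M cells under proteotoxic stress. Members were the genes of both deposited tables whose symbol is ZNF followed by a number and at most 1 letter, and whose mean over all libraries was 20 normalised counts or more in each table. Of the 13088 genes listed in both tables, 368 had such a symbol and 103 passed the level. Members were thus chosen by their measured mean levels, which are given only as description. ZNF644 (means of 20.05 over the MG132 table and 38.4 over the heat table), ZNF33B (20.5 and 21.2) and ZNF462 (21.2 and 23.7) lay just inside the limit. ZNF331 (19.4 and 21.6), ZNF267 (33.4 and 19.8) and ZNF394 (21.2 and 19.9) lay just outside it.

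A C2H2 zinc finger is a short fold in which cysteines and histidines hold a zinc ion, and arrays of such fingers read DNA, RNA or protein surfaces. Many ZNF proteins carry a KRAB box, which recruits the corepressor TRIM28 and with it the histone methyltransferase SETDB1, HP1 proteins and histone deacetylases, and many of their genes lie in clusters on chromosome 19. Other ZNF proteins activate promoters, bind RNA, or act in translation and mitosis. JMJD6 is an oxygenase with known partners among splicing proteins, and HSF1 is the transcription factor that switches on chaperone genes when proteins misfold.

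All cells were PC3M, an established metastatic prostate cancer line. In the MG132 experiment, 2 libraries each came from cells with a non-targeting siRNA (siNT) given DMSO, siNT cells given the proteasome inhibitor MG132 (2.5 µM for 4 h), cells with an siRNA against JMJD6 (siJMJD6) given MG132, and HSF1 knockout (KO) cells given MG132. In the heat experiment, 3 libraries each came from basal siNT cells, siNT cells heated to 42 °C for 1 h with 2 h of recovery, and siJMJD6 cells heated and recovered alike. The siRNAs had been in the cells for 72 h. No siRNA is recorded for the KO cells. Comparisons with KO cells therefore differ in genotype and in siRNA treatment, which cannot be told apart. No siJMJD6 or KO cells without stress were among these libraries. The labels leave it unsaid whether the KO libraries are separate clones and whether replicates came from separate cultures. The spread behind each p-value may therefore be only technical.

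Libraries held 1 tag per transcript from near its 3′ end, and the normalised counts of a single library summed to 1505830 to 1819640 (MG132 table) or 1630640 to 1726640 (heat table). JMJD6 stood at 26.6 and 16.6 in the siJMJD6 libraries against 167 and 130 in siNT under MG132, and at 7.66 to 14.6 against 209 to 253 after heat. HSF1 was at 285 and 175 in the KO libraries and at 1145 or more in all others, although a 3′ tag need not report a deletion elsewhere in a gene. The epithelial keratins KRT18 and KRT19 were at 516 or more in every library. Replicates correlated over the members with r between 0.926 and 0.962 for heat, and with r = 0.842 (siJMJD6) to 0.908 (DMSO) for the MG132 libraries. A member's log2 fold change had a median standard error (SE) of 0.191 in the heat table and 0.383 in the other.

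The 103 genes lay on 20 chromosomes. On chromosome 19 there were 32 (31.07%), while that chromosome held 6.9% of all genes of both tables that matched RefSeq (GRCh38.p14). Fingers were counted by pattern in 1 translation per gene. Of the 102 members with a protein in GENCODE 29, 96 held at least 1 match to a C2H2 finger, and the median was 8. The 6 without a match were ZNF185, ZNF330, ZNF451, ZNF503, ZNF703 and ZNF839, and ZNF462 had the most with 33. For ZNF451 the translation used had 559 residues. Other isoforms were not counted, so a gene without a match may still encode fingers. Summed over the members, the level was 8751 ± 100.1 (SD, n = 3) in basal cells, 8814 ± 84.4 (SD, n = 3) after heat, and 9129 ± 372 (SD, n = 3) after heat with JMJD6 knockdown. In the MG132 table it was 8424 ± 347 (SD, n = 2) with DMSO, 8235 ± 503 (SD, n = 2) with MG132, 8430 ± 1335 (SD, n = 2) with siJMJD6 and MG132, and 8735 ± 75.6 (SD, n = 2) in KO cells. In bulk libraries, fewer cells that express a gene and less of its RNA per cell cannot be told apart.

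JMJD6 knockdown after heat shock was the comparison with the most called members. A gene was called at a Benjamini-Hochberg adjusted p under 0.05 from limma fitted on log2(normalised count + 1) over all genes of the table, and all 103 members passed its filter on low values. Here 29 members rose, against 21.4% of all 9831 tested genes, and 14 fell, against 24.9% of all tested genes, with 46.4% called in all. Among members that is 28.2% higher and 13.6% lower. The groups did not overlap in 46 of the 103 members, 39 of them called, and in 54.0% of all tested genes. Their median log2 fold change was 0.14, beside -0.03 over all tested genes. With the level limit at 50 in each table, 46 members remained, with 14 higher, 8 lower and a median of 0.03.

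**Figure D1:**
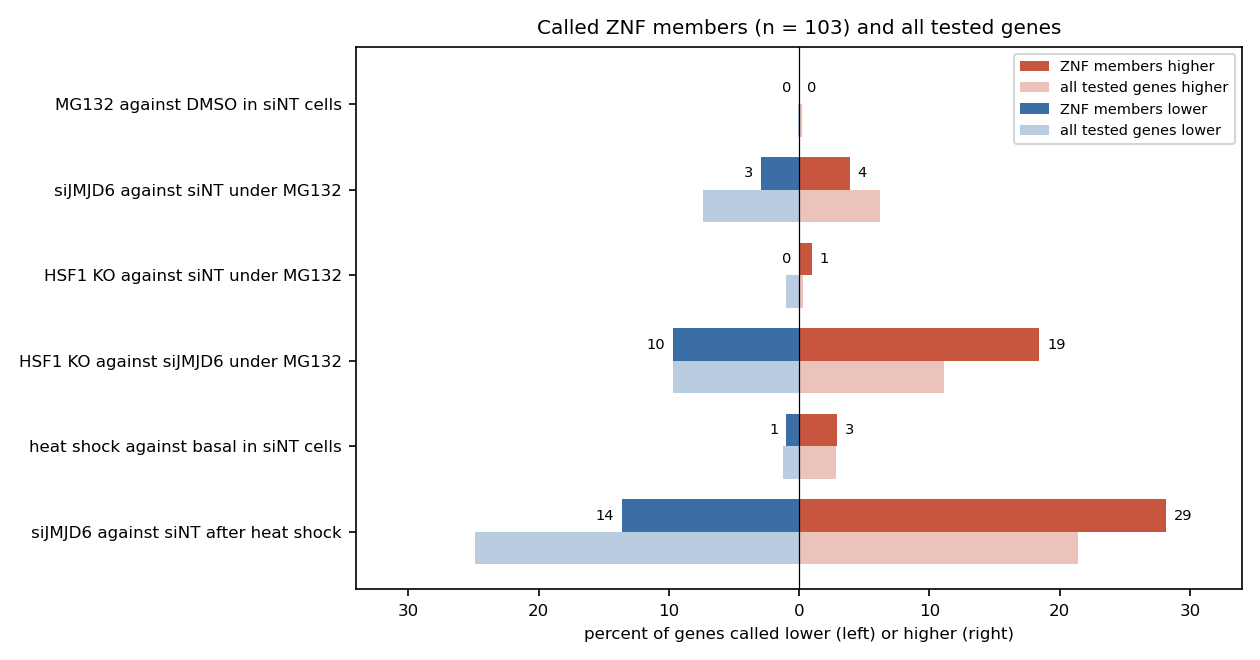
Percent of ZNF members (dark bars, with the number of genes beside each) and of all tested genes (pale bars) that passed limma's adjusted p of 0.05, lower to the left and higher to the right, in each of the 6 comparisons. After heat shock with JMJD6 knockdown 29 members were higher and 14 lower, and with MG132 against DMSO none was called.

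ZNF276 rose furthest. It stood at 27.9, 23.2 and 25.7 normalised counts in heated siNT cells and at 175, 141 and 138 in heated siJMJD6 cells, while basal siNT cells had 33.5, 36.0 and 40.3. Every knockdown library lay far above every siNT library, for a log2 fold change of 2.51 (SE 0.18, limma adjusted p 1.45e-13). Under MG132 it was at 30.9 and 33.0 in siNT and at 122 and 72.5 in siJMJD6 cells (log2 fold change 1.53, SE 0.46, adjusted p 0.0436). ZNF276 is a C2H2 protein with 5 fingers encoded at chr16:89720368-89740925 (GRCh38.p14, plus strand). Its last 2000 bases overlap the span of FANCA, a Fanconi anaemia gene on the opposite strand. The sources used here do not give the strand setting of the authors' counting. FANCA itself had log2 fold changes of -0.49 after heat (adjusted p 0.156) and -1.16 under MG132 (adjusted p 0.133), neither called. In HSF1 KO against siJMJD6 cells FANCA was higher (1.48, adjusted p 0.0457) where ZNF276 was lower (-1.39).

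The promoters of 3 members are shown because these genes gave the largest rise (ZNF276), the fall of the ribosome sensor in both experiments (ZNF598) and the smallest adjusted p after heat alone (ZNF281). They come from RefSeq (GRCh38.p14), run 5′ to 3′ from 250 bases before to 50 after the start site in that table (for ZNF276 one that lies inside the gene's annotated span), and capitals mark GGGCGG, the GC box, and CCAAT, on either strand.
ZNF276 promoter, chr16:89720752-89721051, plus strand: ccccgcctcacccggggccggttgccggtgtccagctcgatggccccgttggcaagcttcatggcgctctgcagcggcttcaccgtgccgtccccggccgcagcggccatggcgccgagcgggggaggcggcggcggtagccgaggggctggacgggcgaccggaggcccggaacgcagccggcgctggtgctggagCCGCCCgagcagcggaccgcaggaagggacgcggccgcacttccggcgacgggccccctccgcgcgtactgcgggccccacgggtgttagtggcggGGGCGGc
ZNF598 promoter, chr16:2009772-2010071, minus strand: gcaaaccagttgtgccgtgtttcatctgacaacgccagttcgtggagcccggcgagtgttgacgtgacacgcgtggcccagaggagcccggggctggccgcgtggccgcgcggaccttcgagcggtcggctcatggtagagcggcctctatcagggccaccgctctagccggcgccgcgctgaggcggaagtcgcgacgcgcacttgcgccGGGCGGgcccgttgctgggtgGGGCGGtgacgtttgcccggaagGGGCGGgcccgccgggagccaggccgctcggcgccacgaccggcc
ZNF281 promoter, chr1:200409987-200410286, minus strand: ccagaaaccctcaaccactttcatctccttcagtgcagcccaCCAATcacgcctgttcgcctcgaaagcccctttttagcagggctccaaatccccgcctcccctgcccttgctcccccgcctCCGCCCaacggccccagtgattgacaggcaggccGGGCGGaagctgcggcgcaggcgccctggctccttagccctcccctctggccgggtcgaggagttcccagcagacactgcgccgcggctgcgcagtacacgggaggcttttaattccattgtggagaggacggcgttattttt
These windows held 2, 3 and 2 GC boxes, and ZNF281 held 1 CCAAT. None held GAANNTTC or TTCNNGAA, the paired repeats of a heat shock element.

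The other large rises after heat knockdown included proteins of varied roles. ZNF185, an actin-associated LIM domain protein in spite of its name, went from 55.9, 72.2 and 64.5 to 141, 177 and 142 (log2 fold change 1.24, SE 0.15, adjusted p 2.73e-08). ZNF76, a relative of ZNF143 that activates promoters, went from 55.0, 77.0 and 68.2 to 140, 142 and 147 (1.10, SE 0.15, adjusted p 1.62e-07). ZNF703, a corepressor amplified in some breast cancers, went from 68.5, 81.1 and 60.7 to 155, 122 and 155 (1.03, SE 0.16, adjusted p 1.76e-06). In all of these the groups did not overlap. Members with a KRAB box also stood among the largest rises. ZNF525 had 39.6, 31.6 and 20.7 in siNT and 59.1, 86.8 and 51.0 in siJMJD6 cells (log2 fold change 1.08), and ZNF480 had 52.1, 42.5 and 49.7 against 95.0, 99.8 and 93.1 (0.99). ZNF197 rose by 0.91 and ZNF16, which has no KRAB match, by 0.87. Outside the named genes the called rises ran from 0.34 (ZNF146) to 0.90 (ZNF584). The call of ZNF16 was lost without siNT heat library 3 or siJMJD6 heat library 3, with adjusted p of 0.0638 to 0.0889. The last 2000 bases of ZNF525 overlap the span of its neighbour ZNF765 on the same strand. ZNF765 was not called (log2 fold change 0.42, limma adjusted p 0.353), and tags of such close relatives could be split by the counting.

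Among the falls, ZNF473 led. It encodes a subunit of the U7 particle that cuts the 3′ ends of histone pre-mRNAs, and it dropped from 54.2, 55.0 and 45.6 in heated siNT cells to 18.1, 17.1 and 19.6 in heated siJMJD6 cells (log2 fold change -1.45, SE 0.23, adjusted p 3.1e-06). ZNF148, which binds GC-rich promoter sequences, went from 88.0, 106 and 66.8 to 39.2, 37.3 and 31.3 (-1.23, SE 0.18, adjusted p 1.1e-06). ZNF248 went from 90.9, 84.0 and 101 to 35, 32 and 50.9 (-1.23, SE 0.17, adjusted p 3.13e-07). No knockdown library of these genes reached any heated siNT library. ZNF598, the ubiquitin ligase that marks collided ribosomes, fell from 119, 97.5 and 119 to 52.9, 62.8 and 53.9 (-0.97, SE 0.15, adjusted p 1.49e-06). The next falls were ZNF664 (-0.92), ZNF706 (-0.90), ZNF33A (-0.77) and ZNF787 (-0.75), all with adjusted p of 0.00703 or less and without overlap. ZNF33A has a close relative in ZNF33B, so tags may be shared between them.

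Of a panel of 12 members whose products work with RNA, ribosomes or the spindle, 3 rose and 3 fell after heat knockdown, 25% each, near the 21.4% and 24.9% of all tested genes. The falls were ZNF598, ZNF706 and ZNF207, a microtubule protein of the spindle (from 123, 107 and 130 to 82.5, 79.8 and 86.2; log2 fold change -0.52, adjusted p 0.00264). The rises were ZNF326, which links RNA polymerase II to splicing (0.46, adjusted p 0.0240), ZNF346, which binds double-stranded RNA (0.52, adjusted p 0.00919), and ZNF830, a spliceosome-associated protein (0.68, adjusted p 0.0351). Each of these 3 rises lost its call without 1 or more libraries. ZNF346 did so without siJMJD6 heat library 3 (adjusted p 0.0519), ZNF326 without siNT 2 or 3 or siJMJD6 1 or 2 (0.0538 to 0.119), and ZNF830 on leaving out siNT 2 or any 1 siJMJD6 library (0.0526 to 0.169) or with no filter (0.0518). ZNF593, a factor of ribosome assembly and the member with the highest mean in the MG132 table, stood at 595, 592 and 561 in siNT and at 645, 541 and 579 in siJMJD6 cells (0.01, adjusted p 0.927), and those groups overlapped.

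In a panel of 12 members that regulate promoters or chromatin, 3 rose (25%) and 2 fell (16.7%) in the same comparison, beside 21.4% and 24.9% of all tested genes. The rises were ZNF703, ZNF76 and ZNF644, a partner of the G9a and GLP methyltransferases (34.7, 37.3 and 32.9 against 57.0, 50.9 and 48.0; log2 fold change 0.56, adjusted p 0.0338). The falls were ZNF148 and ZNF217, an oncoprotein that binds corepressors (87.0, 74.4 and 71.2 against 58.1, 47.9 and 59.8; -0.48, adjusted p 0.0214). ZNF644 lost its call on leaving out any 1 of the 3 heated siNT libraries or siJMJD6 1 or 2 (adjusted p 0.0503 to 0.111), and ZNF217 without siNT 1 or siJMJD6 2 (0.102 each).

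Under MG132, knockdown of JMJD6 changed 7 members by the same test. There 4 rose, against 6.22% of the 9778 tested genes, and 3 fell, against 7.35%, with 13.6% called in all. The median was -0.16, beside -0.05 over all tested genes. An unadjusted p under 0.05 was found for 29 of the 103 members and for 2769 of the 9778 tested genes. The groups did not overlap in 57 members and in 53.1% of all tested genes. The count of 7 became 4 without DMSO library 1, 2 without siNT MG132 1, 2 without siNT MG132 2 and 13 without siJMJD6 2. Both siJMJD6 comparisons use different libraries throughout. Their log2 fold changes correlated with r = 0.62 across the 103 members and r = 0.70 across the 9379 genes tested in both tables, a description over genes, which are not independent. Of the 4 higher members all 4, and of the 3 lower members 2, were also called in the same direction after heat. Over all genes tested in both tables this held for 84.1% of the higher and 80.9% of the lower calls, so the members' share was near that of all genes.

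**Figure D2:**
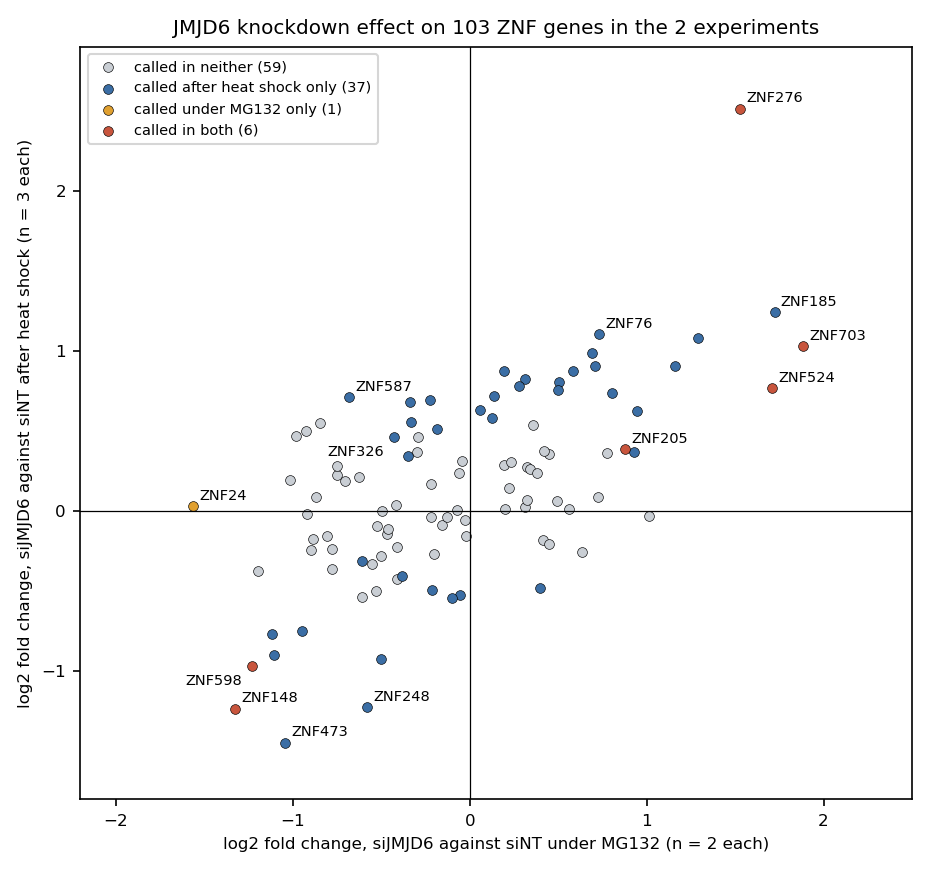
Each point is 1 of the 103 ZNF members, with the log2 fold change of siJMJD6 against siNT under MG132 on the x axis and after heat shock on the y axis, coloured by where it was called. The 6 members called in both lie in the upper right and lower left, and ZNF24 lies at -1.56 under MG132 and 0.03 after heat.

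The members that rose in both were ZNF276, ZNF703, ZNF524 and ZNF205. ZNF703 was at 57.7 and 73.7 in siNT and at 234 and 254 in siJMJD6 cells under MG132 (log2 fold change 1.88, SE 0.30, adjusted p 0.00215). ZNF524, a protein that binds telomeres, was at 15.5 and 23.6 against 83.8 and 50.2 (1.71, SE 0.45, adjusted p 0.0269), and after heat at 29, 25.3 and 19.4 against 43.2, 52.9 and 32.3 (0.77, adjusted p 0.0117). ZNF205, a KRAB protein, was at 111 and 109 against 222 and 186 (0.88, SE 0.27, adjusted p 0.0489), and after heat at 84.0, 78.8 and 91.6 against 118, 103 and 112 (0.39, adjusted p 0.0402). The groups did not overlap in any of these.

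The members that fell in both were ZNF148 and ZNF598. Under MG132 ZNF148 was at 47.4 and 48.3 in siNT and 24.5 and 13.9 in siJMJD6 cells (log2 fold change -1.33, SE 0.38, adjusted p 0.0388). ZNF598 was at 80.3 and 99.4 against 33.0 and 42.7 (-1.23, SE 0.31, adjusted p 0.0225). ZNF24, a repressor of VEGFA, fell from 64.9 and 77.6 to 30.9 and 17.6 (-1.56, SE 0.36, adjusted p 0.0136), but stood at 82.1, 83.1 and 72.4 in heated siNT and 83.4, 77.5 and 81.4 in heated siJMJD6 cells (0.03, adjusted p 0.895). Whether its 2 effects differ was not tested, since the tables were normalised separately.

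With 2 libraries a group, these calls rested on few values. When each of the 8 libraries was left out in turn, ZNF703 kept its call every time. ZNF205 lost it every time (adjusted p 0.0523 to 0.166) and ZNF148 in 6 cases (0.0520 to 0.146), all but siNT DMSO 2 and siJMJD6 1. ZNF276 lost it without either DMSO library, either siNT MG132 library or siJMJD6 1 (0.0526 to 0.194). ZNF598 lost it without either siNT MG132 library or siJMJD6 1 (0.0689 to 0.11), ZNF24 without either siNT MG132 library (0.0592 to 0.0738), and ZNF524 without siNT MG132 1 or siJMJD6 1 (0.143 to 0.164). With no filter on low values ZNF148, ZNF598, ZNF524, ZNF276 and ZNF205 lost their calls, and without the variance trend ZNF148, ZNF598, ZNF276 and ZNF205 did. In the compared groups alone ZNF148, ZNF598 and ZNF205 lost theirs, and ZNF205 also did with a pseudocount of 0.5 or quantile normalisation. The adjusted p of these losses ran from 0.0504 to 0.121.

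**Figure D3:**
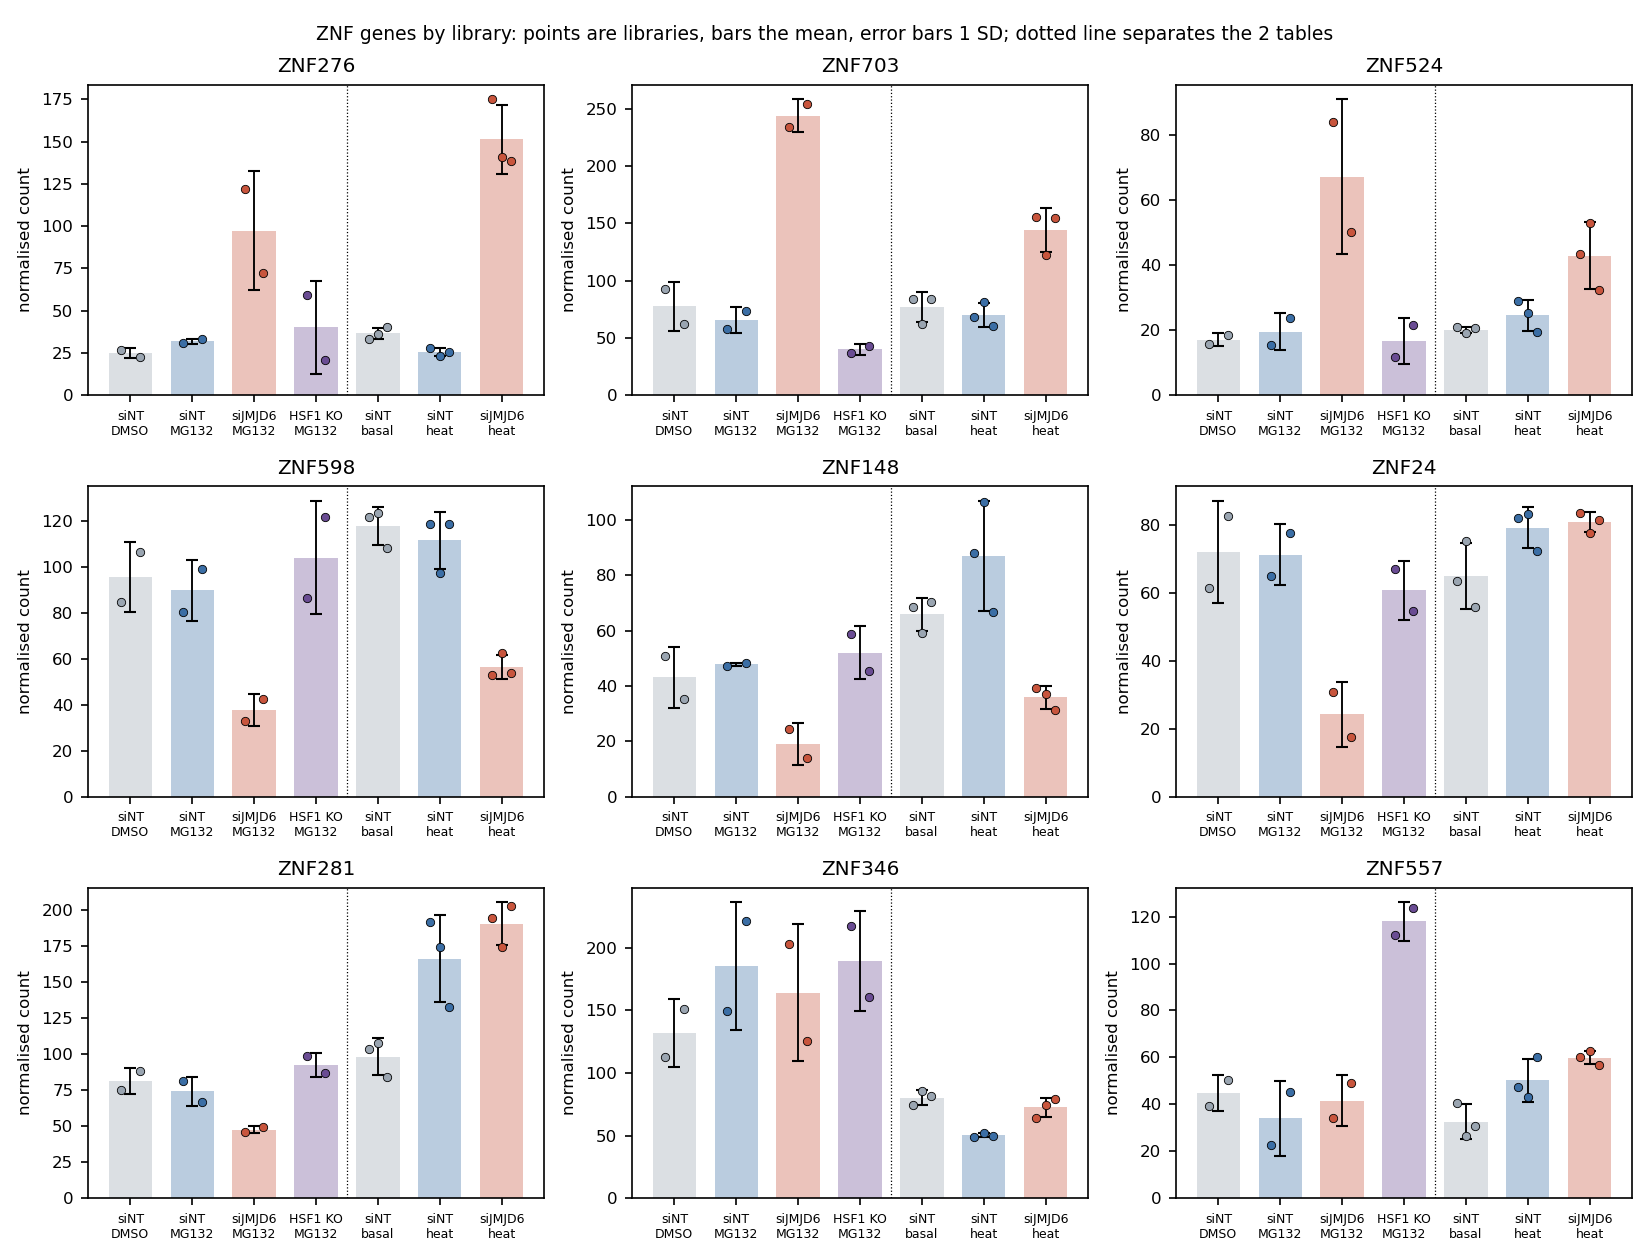
Normalised counts of 9 ZNF genes in every library (points), with group means (bars from 0) and 1 SD (error bars), 2 libraries a group left of the dotted line and 3 right of it; the sides were normalised separately. ZNF276, ZNF703 and ZNF524 stand highest in the siJMJD6 groups, ZNF598 and ZNF148 lowest there, ZNF281 rises with heat, and ZNF557 is highest in HSF1 KO cells.

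Across the family, 86 of 103 members had a promoter in that table, set against 27305 promoters of the same length, and 9 motifs were searched on both strands after the values had been seen. The 27305 promoters were not limited to genes expressed in these cells, while members were chosen by level. Whether expressed genes in general differ alike from all promoters was not tested. GGGCGG was in 70.9% of member promoters and 44.6% of all, and CCAAT in 39.5% and 35.7%. TATAAA was in 1 member promoter (1.16%) and in 11.95% of all. Median GC content was 63.8% in members and 58.3% in all promoters. The heat shock element with 3 alternating GAA repeats, which overlaps both 2-repeat forms below, was in no member promoter and in 0.487% of all. Of these, GAANNTTC was in 6.98% and 6.87%, and TTCNNGAA in 3.49% and 7.84%. The 10-base core of the ZNF143 site was in 2 members (2.33%) and 0.275% of all. TGATGCAA was in no member and 0.923% of all, and CACGTG in 4.65% and 7.44%.

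Heat shock alone moved few members. In siNT cells 3 rose, against 2.86% of tested genes, and 1 fell, against 1.23%, with 4.09% called in all. The median was 0.03, beside 0.00 over all tested genes. The groups did not overlap in 22 members and in 19.8% of all tested genes. ZNF281, a regulator of GC-rich promoters studied in epithelial-mesenchymal transition, went from 103, 108 and 84.0 in basal cells to 191, 174 and 133 after heat (log2 fold change 0.74, SE 0.14, adjusted p 0.000362). It stood at 194, 174 and 203 in heated siJMJD6 cells, which overlapped heated siNT cells. ZNF687, a finger protein found with chromatin readers, went from 46.5, 47.6 and 44.2 to 74.4, 77.5 and 74.0 (0.69, SE 0.16, adjusted p 0.0078). ZNF430, a KRAB protein, went from 119, 113 and 85.9 to 141, 167 and 144 (0.51, SE 0.13, adjusted p 0.0189). All 3 had heated libraries above every basal library.

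The 1 fall was ZNF346. It went from 74.2, 85.6 and 81.5 in basal cells to 49.2, 52.3 and 49.8 after heat (log2 fold change -0.66, SE 0.16, adjusted p 0.0105), and stood at 64.5, 74.4 and 79.4 in heated siJMJD6 cells. The heated siNT libraries were the lowest of the 9. ZNF346 lost its call without basal library 2 (adjusted p 0.0680), and ZNF430 without basal 3 or heated siNT 2 (0.148 to 0.160). In limma without the variance trend ZNF281 (0.0681) and ZNF430 (0.176) lost it.

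MG132 by itself gave no called member. None rose, against 0.205% of tested genes, and none fell, against 0.0614%, with 0.266% called in all by limma. At an unadjusted p under 0.05 there were 11 of the 103 members, 7 higher and 4 lower, and 553 of the 9778 tested genes. The median was 0.07 beside 0.00 over all tested genes. The members with the smallest p were ZNF326, at 34.9 and 26.4 with DMSO and 87.5 and 87.1 with MG132 (log2 fold change 1.49, adjusted p 0.128), ZNF581, at 46.3 and 66.7 against 112 and 145 (1.18, adjusted p 0.355), and ZNF696, at 31.6 and 41.6 against 14.4 and 10.3 (-1.49, adjusted p 0.492). Their libraries did not overlap, as was so for 41 of the 103 members and 36.3% of all tested genes.

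HSF1 KO cells under MG132 differed from siNT cells in 1 member. It rose, against 0.276% of tested genes, and none fell, against 1.00%, with 1.28% called in all by limma. At an unadjusted p under 0.05 there were 11 higher and 7 lower of the 103 members, beside 1253 of the 9778 tested genes in either direction. The groups did not overlap in 46 members and in 45.3% of all tested genes. The call was ZNF557, a KRAB protein of chromosome 19, at 22.7 and 45.4 in siNT and 112 and 124 in KO cells (log2 fold change 1.84, SE 0.38, adjusted p 0.0339). It was at 39.3 and 50.4 with DMSO, so the KO libraries were the highest of the table. The call was lost without siNT MG132 1, KO 1 or KO 2 (adjusted p 0.192 to 0.268), and also with no filter or without the variance trend (0.112 to 0.155). Next by p came ZNF503, a relative of ZNF703, at 420 and 395 against 218 and 154 (-1.15, adjusted p 0.0807), and ZNF672, at 33.0 and 37.8 against 99.4 and 70.1 (1.22, adjusted p 0.108). ZNF503 passed the threshold in the compared groups alone and without either siJMJD6 library, with a lowest adjusted p of 0.0215.

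Set against siJMJD6 cells under the same MG132, HSF1 KO cells had 19 members higher, against 11.1% of tested genes, and 10 lower, against 9.69%, with 20.8% called in all. The median was 0.27, beside 0.05 over all tested genes. The groups did not overlap in 68 members and in 61.1% of all tested genes. This comparison shares the siJMJD6 libraries with the one against siNT, and the calls of both are not independent. ZNF525 was at 71.1 and 64.3 in siJMJD6 and 4.38 and 19.6 in KO cells (log2 fold change -2.70, adjusted p 0.00418), beside 29.9 and 24.6 in siNT cells. ZNF703 was at 234 and 254 against 36.9 and 43.4 (-2.58, adjusted p 0.000156). ZNF185 was at 95.2 and 23.2 against 4.39 and 10.3 (-2.63, adjusted p 0.0164), so its siJMJD6 libraries differed widely. The other large falls were ZNF524 (-1.96), ZNF629 (-1.58), ZNF276 (-1.39), ZNF205 (-1.33) and ZNF581 (-1.21).

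On the higher side ZNF473 was at 36.2 and 12 in siJMJD6 and 125 and 69.0 in KO cells (log2 fold change 2.10, adjusted p 0.00873), beside 50.4 and 38.8 in siNT cells. ZNF639 was at 18.2 and 43.6 against 77.7 and 126 (1.77, adjusted p 0.0112). The others were ZNF557 (1.5), ZNF773 (1.46), ZNF148 (1.44), ZNF598 (1.43), ZNF410, a regulator of CHD4 (1.41), and ZNF670 (1.40). Of the 2 panels, ZNF24 (1.34) and ZNF281 (0.95) were also higher and ZNF76 (-1.16) lower. Without KO library 1 the calls went from 29 to 5, without KO library 2 to 9, and without siJMJD6 library 1 to 19. Of the 19 named calls, 17 were lost without KO 1, KO 2 or either of them, with adjusted p of 0.0515 to 0.402 over every lost call, and ZNF525 and ZNF703 kept theirs without any library.

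The members were then set out by features that their choice had not used. With a pattern for the KRAB box, 29 of the 102 proteins matched, 16 of them on chromosome 19, with a median of 11 fingers, and 73 did not, with a median of 5. After heat knockdown 11 members with a match rose (37.9%) and 1, ZNF33A, fell (3.45%), with a median log2 fold change of 0.38. Of the members without a match 18 rose (24.7%) and 13 fell (17.8%), with a median of 0.03. Over all tested genes 21.4% rose and 24.9% fell. The pattern was widened after the effects had been seen, and with the narrower one first tried, 9 of 24 rose and 1 fell (median 0.38), against 20 and 13 of 78 (median 0.02). The pattern misses degenerate boxes, such as that of ZNF473, whose fall (-1.45) is counted among the members without a match. Other KRAB proteins may be counted there too. The split is therefore by match, and the number of falls among all KRAB proteins is not known from it. Without siJMJD6 heat library 3 there were 7 KRAB rises and 2 falls. No test was made, since members are not replicates.

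**Figure D4:**
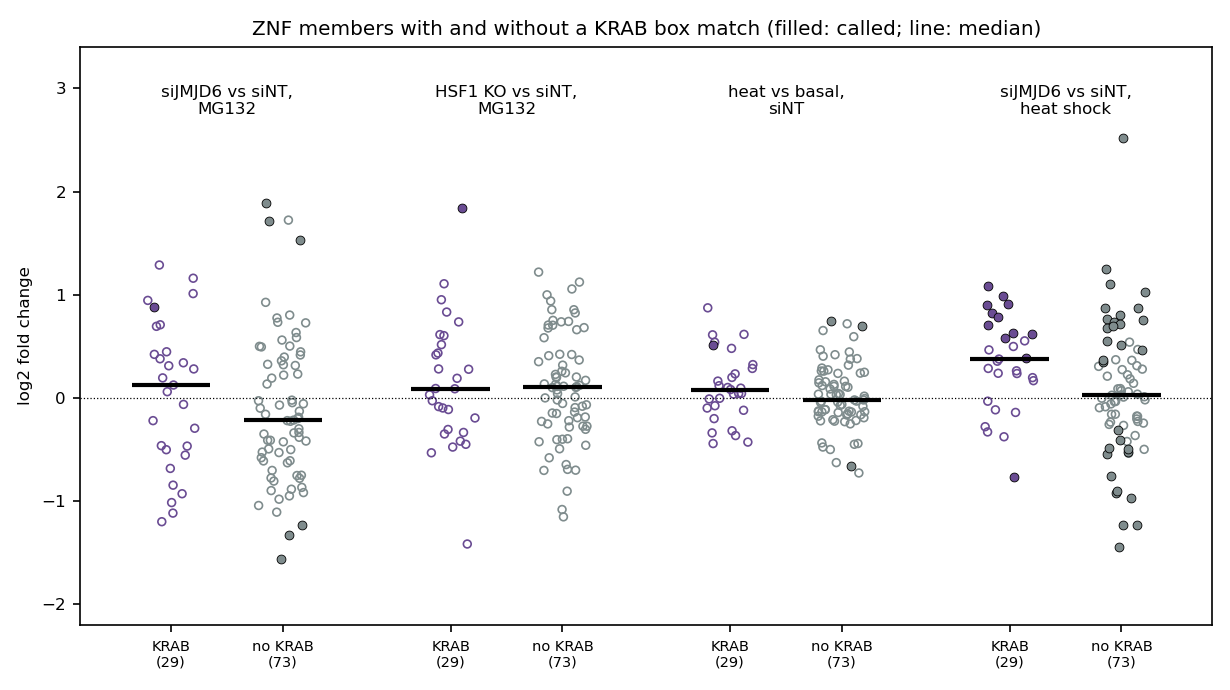
Log2 fold changes of the 29 members with a KRAB match (violet) and the 73 without (grey) in 4 comparisons, filled where limma's adjusted p was under 0.05, with the median as a line. After heat knockdown the medians were 0.38 and 0.03, and points of both kinds spread on both sides of 0.

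Under MG132 knockdown the members with a KRAB match had 1 rise (3.45%), ZNF205, no fall and a median of 0.13. The others had 3 rises and 3 falls (4.11% each) and a median of -0.21, beside 6.22% higher and 7.35% lower over all tested genes. With heat alone 1 member with a match (3.45%), ZNF430, rose, beside 2.86% of all tested genes. In HSF1 KO against siNT cells the 1 called member, ZNF557, had a match (3.45%, beside 0.276% of all tested genes called higher). Against siJMJD6 cells 6 of the 29 (20.7%) were higher and 2 (6.90%) lower, beside 11.1% and 9.69% of all tested genes. The split by position overlaps the one by KRAB. After heat knockdown the 32 members on chromosome 19 had 12 rises (37.5%) and 2 falls (6.25%), with a median of 0.27, and the 71 on other chromosomes 17 (23.9%) and 12 (16.9%), with a median of 0.06. By fingers matched in the translation used, the 37 members with 10 or more had 11 rises (29.7%) and 2 falls (5.41%). The 29 with 5 to 9 had 8 (27.6%) and 5 (17.2%), and the 36 with 0 to 4 had 10 (27.8%) and 7 (19.4%).

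Genes of the machinery that KRAB proteins recruit were listed separately, 16 in all, of which 15 were tested. After heat knockdown 1 rose (6.67%) and 6 fell (40%), beside 21.4% and 24.9% of all tested genes. HDAC2, a histone deacetylase, went from 453 ± 42.4 (SD, n = 3) to 216 ± 15.4 (SD, n = 3), with a log2 fold change of -1.06 (adjusted p 4.36e-11). HDAC1 fell by 0.80, the SETDB1 partner ATF7IP by 0.88, the HUSH subunit FAM208A by 0.85, the DNA methyltransferase DNMT1 by 0.83 and the HP1 protein CBX3 by 0.48 on the log2 scale. The rise was CHD4 (0.28, adjusted p 0.00909), lost without siJMJD6 heat library 1 and without the variance trend (highest adjusted p over the alternatives 0.0781). TRIM28 was at 94.6, 108 and 120 in siNT and 111, 148 and 150 in siJMJD6 cells (0.33, adjusted p 0.0694), and SETDB1 was not called in any comparison.

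Under MG132 knockdown the list had no rise and 2 falls (13.3%), beside 6.22% higher and 7.35% lower over all tested genes. DNMT1 was at 349 and 287 in siNT and 58.6 and 110.5 in siJMJD6 cells (log2 fold change -1.96, adjusted p 0.00141), well apart. FAM208A was at 75.1 and 55.8 against 23.5 and 34.3 (-1.16, adjusted p 0.0385), and lost its call on leaving out any 1 library other than siJMJD6 2 (up to 0.217). In HSF1 KO against siJMJD6 cells DNMT1 (1.87) and CBX1 (0.98) were higher and TRIM28 lower (-0.79, adjusted p 0.0448, lost without any 1 of the 8 libraries). CBX1 lost its call without siJMJD6 1, KO 1 or KO 2 (up to 0.150). In KO against siJMJD6 cells 13.3% of the list was higher and 6.67% lower, beside 11.1% and 9.69% of all tested genes. Heat alone, MG132 alone and KO against siNT called none of the 15, beside 4.09%, 0.266% and 1.28% of all tested genes.

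Members at a higher level had smaller errors. Of the 60 members with a mean of 50 or more over the compared groups, 28 (46.67%) were called after heat knockdown, with a median SE of 0.164. Of the 43 below it 15 (34.88%) were called, with a median SE of 0.236. Over all tested genes of any level 46.4% were called. Another gene lay within the last 2000 bases of 46 of the 103 members. Among the 43 called after heat knockdown this held for 22, and the share over all tested genes was not counted. Of the pairs with a called member, ZNF839 rose (0.70) while CINP on the opposite strand fell (-0.60, adjusted p 0.00905), and ZNF511 and TUBGCP2 both fell (-0.49 and -0.31). The part of shared tags in these values was not tested.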

How the data were processed

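Messenger RNA of PC3M cells was measured in 17 libraries made by QuantSeq FWD (per the labels' protocols), a method that counts a 3′ tag of each transcript. The signal values are normalised counts that the authors deposited as 1 table per experiment. They are not whole numbers, and whole reads could not be recovered in every library, so depth is known only relatively. The submitters' processing notes name FastQC 0.11.2, STAR 2.6.0, HTSeq and hg38. The sources used here do not give the scaling, annotation or strand setting. Low values are imprecise, and scaling within a table hides any change of total RNA.

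Log2(value + 1) was fitted with limma 3.58.1 (R 4.3.3, variance trend, all groups of a table in 1 fit) for genes with at least 10 in 2 (MG132 table) or 3 (heat table) libraries (9778 and 9831 genes). Benjamini-Hochberg adjustment ran over all tested genes in each of 6 comparisons, and a gene was called under 0.05. No test crossed the 2 tables. Alternatives were other pseudocounts, filters and scalings, no trend, the compared groups alone, a replicate block, a member limit of 50 and leaving out each library.

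Named members are, per comparison, up to 8 rises and 8 falls that were largest among called members whose groups did not overlap, the 3 smallest p where fewer than 3 were called, and called members of 2 role panels. ZNF593, ZNF587, ZNF146, ZNF584, ZNF511 and ZNF839 were added after their values were seen, as were the motifs, the 3′ overlaps, the finger classes, the printed promoters and the genes plotted. KRAB boxes and fingers were counted by pattern in GENCODE 29 translations. The members and lists were chosen with earlier results of these data known.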

Additional observations from a re-analysis of the deposited data

Results flagged for a closer look

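For 2 members all siJMJD6 libraries lay below all siNT libraries under MG132 and above them after heat. Groups without overlap were found in 53.1% of all tested genes under MG132 and in 54.0% after heat. ZNF326 was at 87.5 and 87.1 in siNT and 56.3 and 74.4 in siJMJD6 cells under MG132 (log2 fold change -0.43, limma adjusted p 0.422), and at 71.5, 62.1 and 60.4 against 101, 89.1 and 78.4 after heat (0.46, adjusted p 0.0240). ZNF587, a KRAB protein, was at 51.5 and 44.4 against 24.5 and 35.3 under MG132 (-0.68, adjusted p 0.249), and at 33.8, 34.1 and 25.3 against 57.0, 42.5 and 54.9 after heat (0.71, adjusted p 0.0101). The lower values under MG132 did not pass the test. The difference between the experiments was not tested, because the tables were normalised separately.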

How the results depend on the processing

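Of 58 values of named members, 53 were called, and 20 of these kept their call under every alternative run for them. Over 990 alternative values, 137 fell short of the threshold, 3 newly passed it and no called value changed sign. Counts of called members stayed within 1.5 times the reported ones except as follows. Under MG132 the siJMJD6 count of 7 became 2 without a filter, 3 without the variance trend, 4 in the compared groups alone, 4 at the member limit of 50 and 14 with the replicate block described below, and 2 to 13 on leaving out a library. With quantile normalisation it stayed at 7 but split into 3 higher and 4 lower. HSF1 KO against siNT (1) became 0 without a filter, 0 without the trend, 2 in the compared groups alone, 0 at the limit of 50 and 0 to 2 on leaving out a library. KO against siJMJD6 (29) became 16 without a filter, 19 without the trend, 14 at the limit of 50 and 5 to 29 on leaving out a library. Heat against basal (4) became 2 without the trend. After heat the siJMJD6 count of 43 became 22 at the limit of 50. MG132 against DMSO gave 0 under every alternative run.

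Replicate numbers were tried as a replicate block. Deviations of libraries with the same number correlated with r of 0.368 (DMSO and siNT MG132), 0.318 (DMSO and siJMJD6) and 0.0447 (siNT MG132 and siJMJD6) in the MG132 table. In the heat table r was -0.0348 to 0.0943. The labels do not state that the numbers mark pairs, and the reported calls used no block. These values do not exclude a replicate effect shared by the MG132 libraries, and its source was not tested. With the block, siJMJD6 under MG132 had 14 called members, heat against basal 6, siJMJD6 after heat 43 and MG132 against DMSO 0. The KO libraries carry no such number and had no block.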

Other observations

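Zinc finger genes outside the member rule are given by counts. Among ZNF-named rows of either table that were not members, 105 could be tested after heat and 110 under MG132. With JMJD6 knockdown 16 rose and 4 fell after heat (median log2 fold change 0.22), and 1 rose and 1 fell under MG132 (median -0.07). Of the 57 tested ZBTB, ZSCAN, ZKSCAN, ZFP and KLF genes, 10 rose and 8 fell after heat knockdown (median -0.05). Under MG132 knockdown 2 rose and 2 fell. With heat alone 3 rose (5.26%, beside 2.86% of all tested genes). With MG132 alone 1, a KLF gene, fell (1.75%, beside 0.0614% of all tested genes). In KO against siNT cells 1 was higher (1.75%, beside 0.276%). In KO against siJMJD6 cells 5 were higher (8.77%) and 3 lower (5.26%), beside 11.1% and 9.69% of all tested genes. Over all tested genes 21.4% rose and 24.9% fell after heat knockdown (median -0.03), and 6.22% rose and 7.35% fell under MG132 knockdown (median -0.05). After heat knockdown the 16 rises among these ZNF-named rows are 15.2% and the 4 falls 3.81%, both below the shares of all tested genes. These rows had a mean under 20 in at least 1 experiment or were listed in only 1, while all tested genes include every level above the filter. Members themselves were called in 46.67% of cases at a mean of 50 or more and in 34.88% below it. The part of level in the lower shares was not tested.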
